A study of Schizosaccharomyces pombe with 5 samples.

Results

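Genes of meiosis and sporulation in the fission yeast Schizosaccharomyces pombe were followed on 5 spotted oligonucleotide arrays read in 2 colours. Members were chosen by a rule on names that uses no values, though it was set with earlier results of these data known. It took all genes on the array called rec, spo, mcp, meu or mug with a number, except spo12. To these it added mei4, mde2, isp3, mes1, crs1, dmc1, hop1, mek1, bgs2 and ssm4. The rule found 144 genes among 4929 genes and unnamed probe pairs, each with 2 oligonucleotides, and 137 of them had a value on all 5 arrays, of 4907 in all. They were placed in 6 groups, in which 14 genes of meiotic recombination, 11 of sporulation, 4 regulators, 6 mcp genes, 18 meu genes and 91 mug genes were counted.

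The 3 tra1-1-labelled arrays carried Cy5-labelled cDNA of the tra1-1 mutant beside Cy3-labelled cDNA of wild type. The 2 wild-type-labelled arrays carried wild-type material in Cy5 as well as Cy3. Per the labels all cells grew at 30 degrees, and no induction of meiosis is named, nor are mating type, ploidy, growth phase or the nature of the mutation. tra1 encodes the counterpart of human TRRAP, a scaffold of the SAGA acetyltransferase complex.

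Fission yeast enters meiosis when starved cells of opposite mating type conjugate, and the diploid zygote then recombines its chromosomes, divides its nucleus and wraps the products in spores. The transcription factor Ste11 and the RNA-binding protein Mei2 start the programme, cohesin and recombination genes are expressed early, and the Forkhead factor Mei4 drives many of the genes for the divisions and for spore formation. In vegetative cells most of these genes are nearly silent, and several of their transcripts, among them those of mei4, ssm4, rec8 and spo5, are captured by Mmi1 and degraded. The names mug and meu were given to genes whose transcripts increase in meiosis, many of which have no other name. Membership by name is therefore loose: mcp60 was taken in by the rule but encodes the mitochondrial Hsp60 chaperonin and not a meiotic coiled-coil protein like its namesakes, and spo14, spo20 and spo9 encode a Sec12-like protein, a Sec14-like lipid transfer protein and an isoprenoid synthase that vegetative cells also use.

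Each value is a log2 ratio, read as Cy5 over Cy3 after subtraction of the array's own median. Neither the log base nor which dye is on top is given by the files, so the sign of a ratio is likely and not certain. tra1 itself stood at 0.04, 0.02 and -2.21 on the tra1-1-labelled replicates 1, 2 and 3, and at -1.41 and -2.04 on wild-type-labelled arrays 1 and 2. Wild-type RNA in both dyes should give a ratio near 0, so tra1 went against the label on both wild-type-labelled arrays, and the tra1-1-labelled replicate 3 stood with them. Every comparison between the groups below keeps the deposited labels and carries that doubt. For members it is given with and without that array where the array decides a call. The experiments are described as independent, without mention of separate cultures, so the spread behind each p-value may be partly technical.

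Meiosis and sporulation genes lacked values far more often than other genes, mostly on the wild-type-labelled arrays. Of their 288 oligonucleotides, 3, 4 and 8 had no value on the tra1-1-labelled replicates 1, 2 and 3, against 36 and 29 on wild-type-labelled arrays 1 and 2. In shares, 1.04%, 1.39% and 2.78% were without a value on the tra1-1-labelled arrays, and 12.5% and 10.1% on the wild-type-labelled ones. All other probes were without a value in 0.303%, 0.23% and 0.512% on the tra1-1-labelled arrays and in 1.33% and 0.951% on the wild-type-labelled ones. The higher share of the members was thus present on each of the 5 arrays, and it was not tested, since oligonucleotides are not replicates. Members made up 22.1% and 24.2% of all missing values on the wild-type-labelled arrays. No source used here says what leads to a missing value, and the brightness of the spots was not analysed here.

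**Figure D1:**
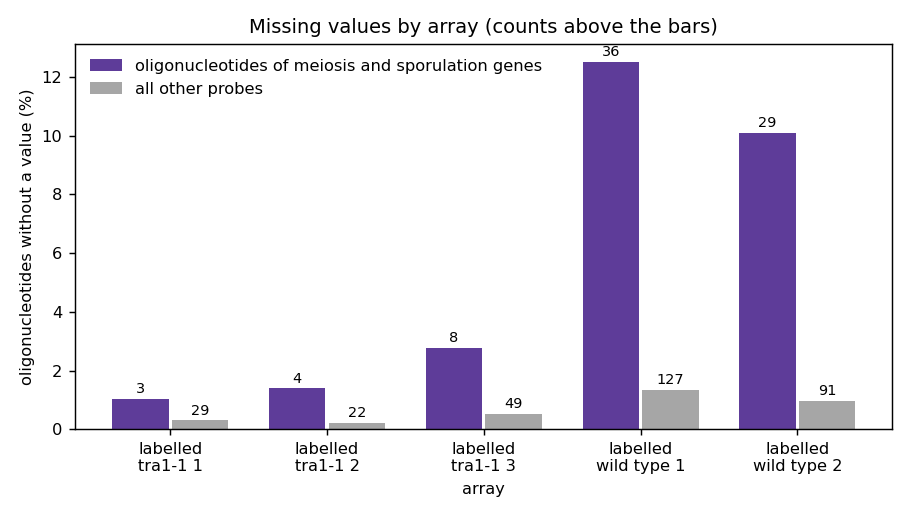
Share of oligonucleotides without a value on each array, in percent, for the 288 oligonucleotides of meiosis and sporulation genes and for the 9570 other probes, with counts above the bars. The members' bars are the taller ones on all 5 arrays, at 12.5% and 10.1% on the wild-type-labelled arrays and at no more than 2.78% on the tra1-1-labelled ones.

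Over both oligonucleotides, 46 of the 144 member genes had at least 1 missing value. The gaps were spread over the groups: 7 of 28 recombination, 5 of 22 sporulation, 2 of 8 regulator, 4 of 12 mcp, 12 of 36 meu and 30 of 182 mug oligonucleotides had a missing value, which is 20.8% of the members' oligonucleotides, against 2.47% of all others. Of the 60 member oligonucleotides with a gap, 46 had it only on wild-type-labelled arrays, 4 only on tra1-1-labelled arrays and 10 on both. The corresponding numbers for the 236 other oligonucleotides with a gap were 149, 49 and 38.

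Gaps removed 7 members from all tests, which is 4.86% of the 144, against 0.313% of other genes (15 of 4785). All 7 had no value on at least 1 wild-type-labelled array, and 0 of them lacked one on a tra1-1-labelled array. The clearest case was spo4, which encodes the catalytic subunit of a Cdc7-like kinase needed in meiosis II and sporulation. It had ratios of -0.20, -0.35 and -0.34 on the tra1-1-labelled arrays and no value from either oligonucleotide on both wild-type-labelled arrays. The ratio of -0.20 came from a single oligonucleotide. The oligonucleotides behind the other ratios differed in sign, at -1.06 and 0.35 on replicate 2 and -0.81 and 0.14 on replicate 3. The partner gene of spo4 is spo6, the Dbf4-like regulatory subunit. It was measured on all 5, with -0.31, -0.09 and -0.20 on the tra1-1-labelled arrays and -0.23 and -0.48 on the wild-type-labelled ones. The others left out were mug27, a kinase gene of forespore membrane formation, mug28, which encodes a meiotic RNA-binding protein, and meu10, meu15, mug37 and mug116. Their ratios, where measured, lay between -0.51 and 0.62.

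The comparison between the labels asked which of these transcripts are higher or lower in the mutant. limma's test of the difference called 0 of the 137 measured members at a Benjamini-Hochberg adjusted p under 0.05, and 0 of all 4907 genes (0%). The smallest adjusted p of a member was 0.625. In RNA of a whole culture, fewer cells that express a gene and less of its RNA per cell cannot be told apart. At an unadjusted p under 0.05, 3 members were higher and 7 lower on the tra1-1-labelled arrays, which is 2.19% and 5.11% of the members, beside 3.59% and 3.53% of all genes. In 33 members the arrays of the 2 labels did not overlap, 13 higher and 20 lower. That is 24.1% of the members beside 23.3% of all genes, with 9.49% higher beside 11.3% and 14.6% lower beside 12.0%. The median difference was -0.03 over members and 0.00 over all genes. The median standard error of the difference was 0.18 over members and 0.18 over all genes.

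Median differences by role were 0.09 for recombination, -0.18 for sporulation, -0.10 for the 4 regulators, -0.11 for mcp, 0.02 for meu and -0.04 for mug genes. Among recombination genes 9 of 14 lay above 0, and among sporulation genes 4 of 10, among mcp genes 2 of 6 (1 of 5 without mcp60, median -0.17), among meu genes 11 of 16 and among mug genes 34 of 87, beside 2424 of all 4907 genes. The recombination median turned to -0.03 without wild-type-labelled array 1. Its array medians were 0.00, 0.14 and 0.10 on the tra1-1-labelled ones and -0.15 and 0.06 on the wild-type-labelled ones, so the arrays of the 2 labels overlapped. Sporulation genes had medians of -0.02, -0.03 and -0.03 on the tra1-1-labelled arrays and 0.17 and 0.13 on the wild-type-labelled ones. Those array medians did not overlap, and they rest on 10 genes.

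**Figure D2:**
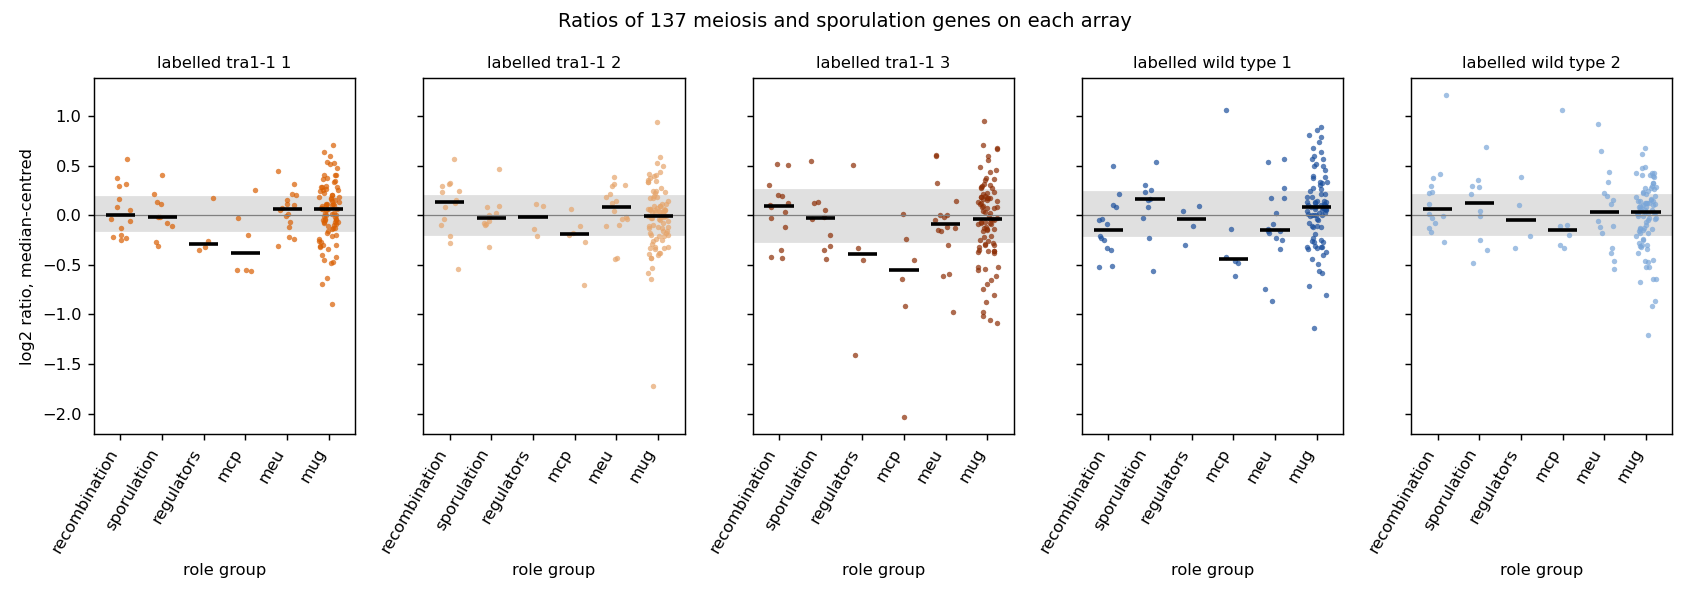
Median-centred log2 ratio of each of the 137 measured members on each array (points), by group, with the group's median (black bar) and the middle 50% of all 4907 genes (grey band). Recombination, sporulation, meu and mug medians lie inside the grey band on every array, while mcp medians lie below it on 3 arrays (-0.38, -0.55 and -0.44) and regulator medians on 2 (-0.29 and -0.39).

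The recombination genes stood close to 0 on most arrays, and none passed the test. rec12 encodes the Spo11-like protein that cuts DNA to start recombination, and its ratios were 0.17, -0.04 and 0.09 on the tra1-1-labelled arrays, against 0.22 and -0.27 on the wild-type-labelled ones. rec6, whose product works with Rec12, stood at -0.20, -0.28 and -0.12 under the tra1-1 label against -0.09 and 0.12 under the wild-type label. The groups overlapped for rec12 and lay apart for the rec6 gene means, with the tra1-1-labelled arrays lower. Neither rec6 oligonucleotide alone separated the groups, and on tra1-1-labelled replicate 3 they stood at -1.03 and 0.79. rec14, the counterpart of Ski8 in budding yeast, had gene means above 0 on every array, with 0.57, 0.24 and 0.21 on the tra1-1-labelled arrays and 0.11 and 0.38 on the wild-type-labelled ones, though 1 oligonucleotide stood at -0.11 on wild-type-labelled array 1.

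The accessory genes of DNA break formation showed no common order of the groups. rec7 had 0.38, 0.30 and 0.03 on the tra1-1-labelled ones and 0.50 and 0.23 on the wild-type-labelled ones, but its oligonucleotides disagreed in sign on tra1-1-labelled replicate 3 (-0.37 and 0.43) and on wild-type-labelled array 1 (1.52 and -0.52). rec15 had 0.30, -0.21 and -0.42 under the tra1-1 label against 0.08 and 0.42 under the wild-type label, and rec24 had -0.25, 0.16 and 0.20 under the tra1-1 label against -0.05 and -0.08 under the wild-type label. In all 3 the groups overlapped. mde2, which links these proteins and depends on Mei4, had the widest spread of the recombination genes, with -0.22, 0.33 and 0.51 on the tra1-1-labelled arrays and -0.52 and 1.22 on the wild-type-labelled ones. Its 2 values on the wild-type-labelled arrays come from different oligonucleotides, since each lacked a value on 1 of those arrays.

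Genes of linear elements, the axis-like structures of fission yeast meiosis, and of the meiotic cohesin gave small positive or mixed differences. hop1, which encodes a HORMA domain protein of linear elements, had the largest difference of the recombination genes at 0.45 ± 0.20 (SE, limma adjusted p = 0.704), with -0.06, 0.57 and 0.11 on the tra1-1-labelled arrays and -0.35 and -0.13 on the wild-type-labelled ones. Its gene means lay apart, and the 95% interval of the difference ran from 0.00 to 0.90. Oligonucleotide 1 of hop1 overlapped between the labels, with -0.14, 0.55 and -0.03 against -0.58 and 0.10. rec10, the main linear element protein gene, had 0.09, 0.32 and -0.03 under the tra1-1 label against -0.04 and -0.17 under the wild-type label, also apart. Its oligonucleotides, fitted singly, gave differences of -0.01 and 0.48. rec25 (-0.04, 0.08 and -0.35 under the tra1-1 label against -0.51 and 0.24 under the wild-type label) and rec27 (0.32, 0.13 and 0.31 under the tra1-1 label against -0.33 and 0.30 under the wild-type label) encode small linear element proteins and overlapped between the groups. mug20, a mug gene of the same structures, had lower gene means on the tra1-1-labelled arrays (0.12, 0.06 and -0.30) than on the wild-type-labelled ones (0.39 and 0.15). Oligonucleotide 2 of mug20 overlapped, with 0.26, 0.24 and -0.59 against 0.06 and 0.10. The differences of hop1, rec10, rec25 and rec27 were thus positive, at 0.45, 0.24, 0.03 and 0.27. Only mug20, named after its values were seen, had a negative one (-0.31). rec8, the cohesin subunit gene, had -0.23, 0.25 and 0.13 under the tra1-1 label against -0.25 and 0.01 under the wild-type label. The recombinase gene dmc1 had -0.13, -0.54 and 0.52 under the tra1-1 label against -0.23 and -0.03 under the wild-type label, and the checkpoint kinase gene mek1 had 0.05, -0.10 and -0.43 under the tra1-1 label against -0.21 and -0.01 under the wild-type label, both with overlap. The value of 0.52 for dmc1 is the mean of oligonucleotides at 1.36 and -0.32.

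**Figure D3:**
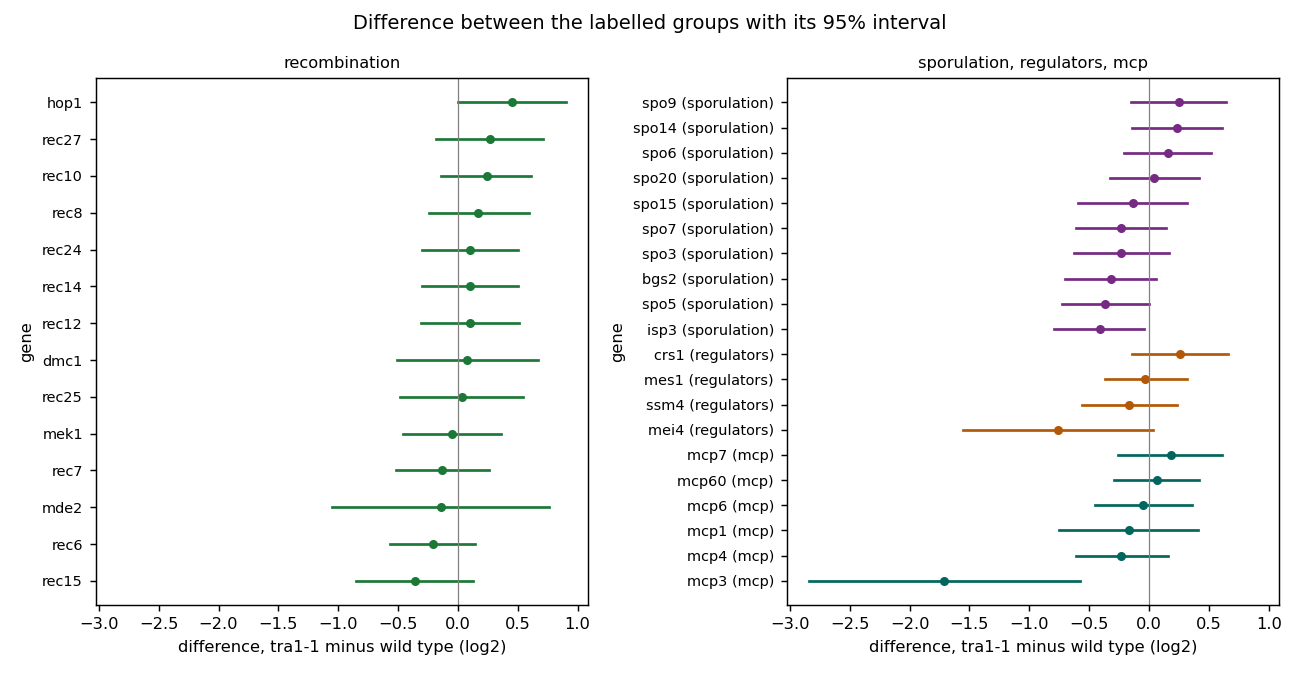
Difference of the mean log2 ratio, tra1-1-labelled arrays (n = 3) minus wild-type-labelled arrays (n = 2), with its 95% interval from limma, for the recombination genes and for the sporulation, regulator and mcp genes. Most intervals cross 0, and that of mcp3, from -2.84 to -0.58, lies farthest from it, although its adjusted p is 0.625.

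Among sporulation genes the spore coat gene isp3 had the largest difference, at -0.41 ± 0.17 (SE, limma adjusted p = 0.685). It stood at 0.12, 0.09 and 0.05 on the tra1-1-labelled arrays and at 0.31 and 0.69 on the wild-type-labelled ones, so the groups lay apart. spo5, which encodes an RNA-binding protein of meiosis II and sporulation, had -0.08, -0.32 and -0.02 on the tra1-1-labelled arrays against 0.16 and 0.29 on the wild-type-labelled ones, a difference of -0.37 ± 0.17 (SE, limma adjusted p = 0.704). The spore wall glucan synthase gene bgs2 had -0.02, 0.00 and -0.35 under the tra1-1 label against 0.17 and 0.22 under the wild-type label. For these 3 genes every tra1-1-labelled gene mean was below both wild-type-labelled ones, as in 14.6% of members and 12.0% of all genes. Oligonucleotide 2 of isp3 overlapped between the labels, with 0.14, 0.36 and 0.05 against 0.17 and 0.69. That of bgs2 overlapped too, with -0.11, -0.07 and -0.12 against -0.18 and 0.09.

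The genes of the forespore membrane were less uniform. spo3, a forespore membrane protein gene, had 0.14, -0.10 and -0.31 on the tra1-1-labelled arrays and 0.24 and 0.04 on the wild-type-labelled ones. spo15 and spo7 encode proteins of the spindle pole body where that membrane starts. spo15 had -0.02, -0.08 and 0.55 under the tra1-1 label against 0.26 and 0.30 under the wild-type label, and spo7 had 0.41, 0.10 and 0.14 under the tra1-1 label against 0.54 and 0.36 under the wild-type label. The groups overlapped in all 3. Of the genes that vegetative cells also use, spo14 had gene means of 0.22, 0.47 and 0.13 on the tra1-1-labelled arrays. Each lay above those on the wild-type-labelled ones (0.09 and -0.01). Oligonucleotide 1 of spo14 overlapped, with 0.18, 0.35 and -0.02 against 0.00 and -0.20. The groups overlapped for spo9, with -0.11, -0.06 and -0.44 under the tra1-1 label against -0.56 and -0.35 under the wild-type label. They overlapped too for spo20, with -0.27, 0.02 and -0.04 under the tra1-1 label against -0.03 and -0.25 under the wild-type label.

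Of the regulators, mei4 varied most, and 1 array made up most of its difference. It stood at -0.26, 0.12 and -1.41 on the tra1-1-labelled arrays and at 0.10 and 0.39 on the wild-type-labelled ones, a difference of -0.76 ± 0.36 (SE, limma adjusted p = 0.704). The value of -1.41 came from 1 oligonucleotide, since the other had none on that array, and without that array the difference was -0.32. mes1, an inhibitor of the anaphase-promoting complex that lets cells enter meiosis II, was below 0 on every array, with -0.32, -0.21 and -0.33 under the tra1-1 label against -0.30 and -0.21 under the wild-type label. ssm4, a dynactin subunit gene of the nuclear movement in meiotic prophase, had -0.35, -0.14 and -0.45 under the tra1-1 label against 0.04 and -0.33 under the wild-type label, and the meiotic cyclin gene crs1 had 0.18, 0.10 and 0.51 under the tra1-1 label against -0.11 and 0.11 under the wild-type label. Groups overlapped for each of the 4 regulators.

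The mcp genes held the largest difference of all members. mcp3, a gene of the meiotic coiled-coil family, stood at 0.26, -0.18 and -2.04 on the tra1-1-labelled arrays and at 1.06 and 1.06 on the wild-type-labelled ones. The difference was -1.71 ± 0.51 (SE, limma adjusted p = 0.625), the only member difference of at least 1 (2-fold). It was the highest member on wild-type-labelled array 1 and the lowest on tra1-1-labelled replicate 3, so for this gene that replicate 3 array did not stand with the wild-type-labelled arrays as it did for tra1. Its oligonucleotides gave -1.0 and -3.08 on the tra1-1-labelled replicate 3 and 1.09 and 1.03 on wild-type-labelled array 1, and 1 of them had no value on wild-type-labelled array 2. Without the tra1-1-labelled replicate 3 the difference was -1.02, which passed limma's test (adjusted p = 0.00149).

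The other mcp genes were mostly below 0 in both groups. mcp4, which encodes a forespore membrane protein, had -0.55, -0.70 and -0.64 on the tra1-1-labelled arrays and -0.61 and -0.20 on the wild-type-labelled ones. mcp6, needed at the spindle pole body for nuclear movement, had -0.55, -0.20 and -0.24 under the tra1-1 label against -0.46 and -0.11 under the wild-type label. mcp7, the partner of meu13 in a complex that assists the recombinases, had -0.56, -0.11 and 0.01 under the tra1-1 label against -0.48 and -0.30 under the wild-type label. meu13 itself had -0.12, 0.32 and -0.97 under the tra1-1 label against -0.23 and -0.33 under the wild-type label, so the partners differed from each other by array. mcp1 had -0.03, 0.06 and -0.91 under the tra1-1 label against -0.14 and -0.10 under the wild-type label, and the chaperonin gene mcp60 had -0.20, -0.27 and -0.45 under the tra1-1 label against -0.42 and -0.33 under the wild-type label. The groups overlapped in all of these.

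From the mug and meu genes, those with the smallest p in each direction were examined, 6 per direction. mug15 had the smallest p of all members, with 0.02, 0.03 and -0.07 on the tra1-1-labelled arrays and -0.49 and -0.67 on the wild-type-labelled ones, and a difference of 0.57 ± 0.16 (SE, limma adjusted p = 0.625). mug108 had -0.31, 0.23 and -0.35 under the tra1-1 label against -0.80 and -0.86 under the wild-type label (difference 0.68 ± 0.20, SE, limma adjusted p = 0.625), and both of its values on the wild-type-labelled arrays rest on a single oligonucleotide. mug124 had 0.21, -0.18 and -1.06 under the tra1-1 label against -1.14 and -1.21 under the wild-type label (difference 0.84 ± 0.30, SE, limma adjusted p = 0.669). Gene means lay apart for these 3 genes, as in this direction for 11.3% of all genes. Oligonucleotide 2 of mug124 overlapped between the labels, with 0.57, -0.04 and -0.54 against -0.63 and -0.52. For mug124 the tra1-1-labelled replicate 3 was nearer to the wild-type-labelled arrays than to the other arrays of its label, as for tra1, and for mug15 it was with its own label. Smaller differences were those of meu18 (0.33), mug57 (0.35) and mug106 (0.52).

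In the lower direction mug182 had -0.63, -0.16 and 0.38 on the tra1-1-labelled arrays and 0.89 and 0.43 on the wild-type-labelled ones, a difference of -0.80 ± 0.27 (SE, limma adjusted p = 0.648). mug8 had -0.27, -0.58 and -1.09 under the tra1-1 label against 0.34 and -0.24 under the wild-type label (difference -0.70 ± 0.25, SE, limma adjusted p = 0.674). mug8 was lower on each tra1-1-labelled array, but its oligonucleotides stood at 1.12 and -0.44 on wild-type-labelled array 1, so its level there is uncertain. mug117 (-0.50), mug5 (-0.50), mug132 (-0.49) and mug147 (-0.34) also had every tra1-1-labelled gene mean below both wild-type-labelled ones, as did 12.0% of all genes. A single spot set the lowest value of tra1-1-labelled replicate 2: mug130 stood at -1.72 on the tra1-1-labelled replicate 2 from 1 oligonucleotide, and between 0.15 and 0.29 on the other 4 arrays.

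**Figure D4:**
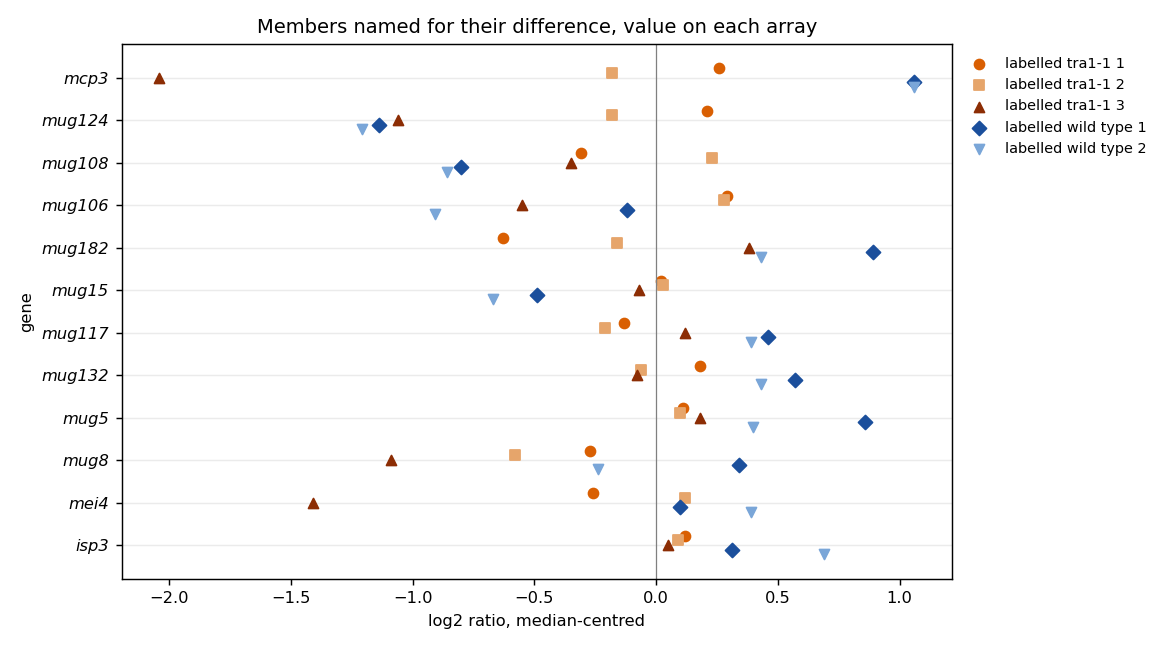
Median-centred log2 ratio on each array for 12 members, among them the gene with the largest difference in each of the mcp, mug and regulator groups. mug130 (difference -0.57) is not shown. The 2 wild-type-labelled arrays lie together at 1.06 for mcp3 and at -1.14 and -1.21 for mug124, and the tra1-1-labelled replicate 3 lies at -2.04 for mcp3 and at -1.06 for mug124.

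Without the tra1-1-labelled replicate 3, limma called 7 of 137 members (5.11%), beside a background of 205 of 4907 genes (4.18%). Of the members 2.92% were higher, beside 2.47% of all genes, and 2.19% lower, beside 1.71%. Higher on the tra1-1-labelled replicates 1 and 2 were mug124 (1.20), mug106 (0.80), mug108 (0.79) and mug15 (0.60), with adjusted p of 0.000277, 0.037, 0.0178 and 0.0406. Lower were mug182 (-1.06), mcp3 (-1.02) and mug117 (-0.59), with adjusted p of 0.00304, 0.00149 and 0.0406. No recombination, sporulation, regulator or meu gene was called, and the share of called members was near that of all genes. That array was left out after its tra1 ratio was known, so these calls describe the other 4 arrays.

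Ratios were also tested against 0 within each label, where a dye effect common to all arrays stays in the value. On the tra1-1-labelled arrays limma called 8 of 137 members (5.84%), beside a background of 384 of 4907 genes (7.83%). Above 0 were mug24 (0.71 ± 0.20), mug168 (0.59 ± 0.32), mug143 (0.52 ± 0.18) and mug86 (0.42 ± 0.01, SD, n = 3), which is 2.92% of members beside 5.60% of all genes. Below 0 were mug8 (-0.65 ± 0.41), mcp4 (-0.63 ± 0.07), mug157 (-0.62 ± 0.09) and mug113 (-0.62 ± 0.34, SD, n = 3), again 2.92% beside 2.22%. Their limma adjusted p ran from 0.0226 to 0.0468. The SD of 0.01 for mug86 is that of gene means. Its oligonucleotides lay apart, at 0.67 and 0.15, 0.64 and 0.19, and 0.96 and -0.09 on replicates 1, 2 and 3. mug70 and mug4 above 0 and mug165, mug112 and mug109 below 0 came next and did not pass. These calls depend on single arrays: 1 member (0.730%, beside 1.32% of all genes) was called without replicate 2, 3 (2.19% beside 2.85%) without replicate 1 and 30 (21.9%, beside 22.4% of all genes) without replicate 3, of which 16 lay above 0 (11.7% beside 12.8%) and 14 below (10.2% beside 9.60%).

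On the wild-type-labelled arrays limma called 9 of 137 members (6.57%), beside a background of 559 of 4907 genes (11.4%). Above 0 were mug70 (0.64 ± 0.23), mug5 (0.63 ± 0.33), mug143 (0.61 ± 0.02), isp3 (0.50 ± 0.27) and mug132 (0.50 ± 0.09, SD, n = 2). Below 0 were mug124 (-1.18 ± 0.05), mug108 (-0.82 ± 0.04), mug15 (-0.58 ± 0.13) and mug157 (-0.52 ± 0.17, SD, n = 2). That is 3.65% of members above 0 beside 6.40% of all genes, and 2.92% below 0 beside 4.99%. mug143 and mug157 were called under both labels with the same sign, with 0.48, 0.36 and 0.71 for mug143 on the tra1-1-labelled arrays and 0.60 and 0.62 on the wild-type-labelled ones. For mug157 the values were -0.69, -0.64 and -0.52 under the tra1-1 label against -0.40 and -0.64 under the wild-type label, and for both genes the groups overlapped. No recombination gene, regulator or meu gene was called under either label, and isp3 was the only sporulation gene called. With 14, 4, 16 and 10 measured genes, these groups are too small to read that as a trait of theirs. Of all genes 7.83% were called under the tra1-1 label and 11.4% under the wild-type label. mug117 and mug182 above 0 and mug155 and mug165 below 0 came next and did not pass. For members and all other genes alike, the calls were lost with either wild-type-labelled array left out, a fit that holds a single array of that label. With the tra1-1-labelled replicate 3 left out of the same fit limma called 36 members (26.3%, beside 27.9% of all genes), 20 above 0 (14.6% beside 15.0%) and 16 below (11.7% beside 12.8%).

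Members seldom reached a 2-fold ratio. At least 1 from 0 were 0, 1 and 5 of 137 members on the tra1-1-labelled replicates 1, 2 and 3 and 2 and 3 on wild-type-labelled arrays 1 and 2. In shares these were 0%, 0.73% and 3.65% on the tra1-1-labelled arrays, beside 0.163%, 0.346% and 3.42% of all genes, and 1.46% and 2.19% on the wild-type-labelled ones, beside 2.28% and 1.96%. mcp3 and mug124 were so on 3 arrays each and no other member on more than 1, which is 1.46% of members on 2 or more arrays beside 2.18% of all genes. On at least 1 array it was 7 members (5.11%) beside 4.32%. The spread of ratios over members, 0.29, 0.31 and 0.45 (SD over 137 genes) on the tra1-1-labelled arrays and 0.38 and 0.36 on the wild-type-labelled ones, was close to that over all genes, 0.26, 0.30 and 0.45 under the tra1-1 label against 0.40 and 0.39 under the wild-type label.

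The 2 oligonucleotides of a member repeated each other poorly. Across genes, which are not independent replicates and share the array, they correlated with r = 0.27, 0.07 and 0.24 on the tra1-1-labelled arrays and 0.24 and 0.14 on the wild-type-labelled ones, over 112 to 141 members. For other genes r was 0.12, 0.12 and 0.39 under the tra1-1 label against 0.41 and 0.41 under the wild-type label. This r was lower for members than for other genes on 4 of the 5 arrays and higher on tra1-1-labelled replicate 1. The median absolute difference between the 2 oligonucleotides was similar in both sets. For members it was 0.32, 0.34 and 0.42 on the tra1-1-labelled arrays and 0.37 and 0.34 on the wild-type-labelled ones. For other genes it was 0.31, 0.35 and 0.40 under the tra1-1 label and 0.32 and 0.32 under the wild-type label. Differences between the groups, fitted for each oligonucleotide apart, had the same sign in 59 of 98 members with both (60.2%) and in 56.5% of other genes. For mug15, mug124 and mug182 both oligonucleotides gave the sign of the gene.

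In the gene order of the reference annotation, 7 pairs of members were neighbours, 6 of them with both genes measured, and the difference had the same sign in 1 of those 6. mug57 and mug97 overlap in that annotation, and their differences were 0.35 and -0.22. How the oligonucleotides lie relative to the overlap was not analysed here.

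Of other genes in the same programme, the entry regulators ste11 and mei2 had the highest ratios on the wild-type-labelled arrays and on tra1-1-labelled replicate 3. In a list of 46 such genes, 42 had a value on all arrays, and 0 passed the test of the difference on all 5 arrays. Calls for this list without the tra1-1-labelled replicate 3, where 4.18% of all genes passed, are not given here. That 0 may therefore depend on replicate 3. On the wild-type-labelled arrays limma called 4 of the 42 above 0 (9.52%, beside 6.40% of all genes) and 0 below (beside 4.99%), and with either wild-type-labelled array left out it called 0 of all genes. On the tra1-1-labelled arrays 2 of the 42 were called above 0 (4.76% beside 5.60%) and 0 below. Among 9 entry regulators, ste11 stood at 0.22, 0.30 and 1.99 on the tra1-1-labelled arrays and at 2.08 and 1.59 on the wild-type-labelled ones, and mei2 at 0.25, 0.56 and 1.63 under the tra1-1 label against 1.67 and 1.46 under the wild-type label. Both were high on the arrays where tra1 was low. mei4, which acts later, was not high there, with -1.41 on the tra1-1-labelled replicate 3 and 0.10 and 0.39 on the wild-type-labelled ones. mei3, the inhibitor of the Pat1 kinase, had 0.10, -0.04 and -0.02 under the tra1-1 label against 0.56 and 0.02 under the wild-type label, and pat1 had 0.22, 0.36 and 0.18 under the tra1-1 label against -0.06 and 0.13 under the wild-type label.

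In the remaining groups of that list, with no array left out, 0 of 6 genes for the removal of meiotic transcripts were called under any test. mmi1 stood at -0.20, -0.11 and 0.00 on the tra1-1-labelled arrays and at 0.20 and 0.02 on the wild-type-labelled ones. Of 12 recombination partners shared with DNA repair, 0 were called. Of all genes, 0% were called in the difference, 7.83% in the tra1-1-labelled ratio and 11.4% in the wild-type-labelled ratio. Sets of 6 and 12 genes are too small to read these counts as a trait of theirs. The telomere bouquet gene bqt2 was above 0 under both labels, with 0.68, 0.53 and 0.76 under the tra1-1 label against 0.83 and 0.45 under the wild-type label, and so was the glucan synthase gene mok13, with 0.45, 0.72 and 0.68 under the tra1-1 label against 0.60 and 0.68 under the wild-type label. limma adjusted p for bqt2 was 0.0226 on the tra1-1-labelled arrays and 0.0173 on the wild-type-labelled ones, and for mok13 it was 0.0251 and 0.0136. cuf2 and mfr1, a regulator of Mei4-dependent genes and an activator of the anaphase-promoting complex in meiosis, were among the genes without a value on every array.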

How the data were processed

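The authors deposited a single log ratio for every probe on every array, here taken as log2. No source used here gives its base, direction, background correction or normalization. Per the labels each dye was coupled to about 1.5 ug of cDNA made from about 30 ug of RNA, with no dye swap. Each array had values for 9695 to 9832 of 9858 probes, with medians from -0.43 to -0.21 as deposited, so medians were subtracted array by array. Gene symbols came from the platform annotation (9632 probes with 1 symbol, 44 with several, 182 unlisted), and all 144 member symbols matched the RefSeq gene table of assembly ASM294v3. The oligonucleotides of a gene were averaged, or the remaining value was used, and genes without a value on any 1 array were left out.

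limma 3.58.1 in R 4.3.3 (lmFit, eBayes, 2-sided, Benjamini-Hochberg over 4907 genes at 0.05) tested the difference between labels and the wild-type-labelled ratio in 1 fit of 5 arrays, and the tra1-1-labelled ratio in a fit of its own 3 arrays. Scripts were tested on simulated data. Members, gene lists and tests were chosen with earlier results of these data known. Named genes are all recombination, sporulation, mcp and regulator members, the 6 mug or meu genes with the smallest p per direction and comparison, and members at least 1 from 0 on 2 or more arrays. mug20, meu13, mug27, mug28, mug97, mug130 and the other members left out for missing values were named after their values were seen. The number of arrays limits the precision. A planned search of promoters for motifs was not run, since no promoter sequence was used here. Alternatives were the deposited scale, quantile normalization, complete oligonucleotides, each oligonucleotide alone, a robust prior, a replicate block and leaving out each array. Figures used matplotlib 3.10.9 in Python 3.11.15.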

Additional observations from a re-analysis of the deposited data

How the results depend on the processing

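The printed differences of 17 members were recomputed, where a value was available, under the alternatives other than a robust prior and each oligonucleotide alone. All 165 recomputed values kept their sign. The printed differences of mug130 and mug97 were not recomputed. That of mug130, -0.57, holds the single value of -1.72 on tra1-1-labelled replicate 2. Its other values were 0.29 and 0.23 under the tra1-1 label and 0.19 and 0.15 under the wild-type label. The mug and meu genes among the 17 were named for small p on these same arrays, so kept signs are no independent support. The test that the reported value missed was passed by 14, all with a replicate block or without tra1-1 replicate 3. Both settings take the difference from the same arrays and gave equal values (for mcp3 -1.02 and -1.02), so they are not separate results. Of all genes, 6.70% and 4.18% passed there. Of the counts and role medians, 175 recomputed values moved by less than the limits set for them and 62 moved by more. The causes were not tested except where the alternative's own construction gives them.

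On the values as deposited, whose medians lie below 0, limma called 2613 genes (53.3%) and 74 members (54.0%) in the tra1-1 ratio. In the wild type ratio it called 1561 genes (31.8%) and 31 members (22.6%). Nearly all lay below 0, for genes and members alike. In the tra1-1 ratio these were 2547 genes and 73 members, and in the wild type ratio 1466 genes and 31 members. Medians of recombination, sporulation, regulator, mcp, meu and mug genes were then -0.29, -0.45, -0.66, -0.68, -0.34 and -0.36 in the tra1-1 ratio and -0.35, -0.14, -0.38, -0.64, -0.33 and -0.24 in the wild type ratio, and the difference was -0.23 for sporulation and -0.09 for mug genes. Quantile normalization gave 628 genes (12.8%) and 14 members (10.2%) in the tra1-1 ratio, 754 genes (15.4%) and 18 members (13.1%) in the wild type ratio and a sporulation median of -0.08 in the tra1-1 ratio. With only genes measured by both oligonucleotides on all arrays, sporulation medians were -0.13 for the difference and 0.14 for the wild type ratio, and the regulator median was -0.15 in the wild type ratio. Centring on gene medians, chosen after seeing the data, gave -0.17 for the sporulation difference and -0.08 for the regulators' wild type ratio. Oligonucleotide 1 alone gave 662 genes in the tra1-1 ratio. Oligonucleotide 2 alone gave 1 gene in the difference and 549 of 4782 genes (11.5%) and 15 of 114 members (13.2%) in the tra1-1 ratio.

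Arrays of the 2 labels share only a replicate number: deviations of same-numbered arrays correlated at 0.04 and -0.03. With a replicate block limma called 329 genes (6.70%) and 8 members (5.84%) in the difference. It called 1486 genes (30.3%) and 43 members (31.4%) in the wild type ratio, and the sporulation difference was -0.16. Replicate 3 of tra1-1 has no partner and adds nothing to that difference.

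Leaving out 1 array at a time gave 0 to 205 genes and 0 to 7 members in the difference, 65 to 1100 genes and 1 to 30 members in the tra1-1 ratio, and 0 to 1367 genes and 0 to 36 members in the wild type ratio. All 6 upper ends came without tra1-1 replicate 3. The shares there were 5.11%, 21.9% and 26.3% of members, beside 4.18%, 22.4% and 27.9% of all genes. Where 1 wild type array was left, it was assumed to vary like the others. Median differences ran from -0.03 to 0.18 for recombination and from -0.19 to -0.10 for sporulation genes. In the tra1-1 ratio they ran from 0.03 to 0.15 and from -0.08 to -0.03. In the wild type ratio medians ran from 0.13 to 0.17 for sporulation, -0.07 to -0.04 for regulators, -0.15 to 0.03 for meu and 0.03 to 0.08 for mug genes. The mcp difference ran from -0.20 to 0.05. Spot brightness was not analysed here, so what signal over background limits is not known.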
